A study of Mus musculus with 5 samples.

Results

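The mitosis and spindle genes of mouse dendritic cell progenitors were described, a list of 44 genes that act between entry into mitosis and the separation of the daughter cells. A gene was measured when the platform annotation gave its symbol to a probe set, a group of short oligonucleotides that report on 1 transcript. This held for 38 of the 44 genes, with 51 of 12422 probe sets. Ccnb1, Cdc25b, Bub1b, Fbxo5, Tpx2 and Hmmr had no such probe set.

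Total RNA from 5 samples of mouse bone marrow cells was hybridised to 1-colour arrays, with 1 array per sample. All 5 samples carried the same description, dendritic cell progenitors positive for FLT3, the receptor for a growth factor of early blood progenitors, and for CD11b, an integrin chain of myeloid cells. The labels numbered them 1 to 5 and gave no strain, age, animal, pool or treatment, so the samples formed 1 group and no conditions were compared. Nothing stated that they came from separate animals, and with 1 array each the spread between samples includes the error of the arrays.

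Mitosis is driven by Cdk1 bound to cyclins of the A and B types, which Cdc25 phosphatases switch on and further kinases of the Plk, Aurora and Nek families assist. The spindle checkpoint holds back the anaphase-promoting complex, a ubiquitin ligase, until every kinetochore is attached, after which securin and the cyclins are destroyed. Kinesin motors, the chromosomal passenger complex and condensin shape the spindle and the chromosomes. Most of these genes are transcribed mainly in late S, G2 and M phase, so in bone marrow their transcripts mark dividing progenitors. In bulk RNA, fewer dividing cells and less of a transcript per cell cannot be told apart.

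Many promoters of this class hold a cell cycle genes homology region, abbreviated CHR, near the start of transcription, together with several CCAAT boxes. The CHR is bound by the repressive DREAM complex in resting cells and by complexes with B-Myb and FoxM1 in dividing cells, and the CCAAT box by NF-Y. Promoters of RefSeq (build GRCm38.p6) were available for 31 of the 38 measured genes, and 7 were without an entry, namely Aurkb, Ccna2, Cdc25c, Incenp, Kif20a, Smc4 and Stmn1. The 250 bases before the start were searched on both strands for TTTGAA or TTCGAA as CHR and for CCAAT, and matches were allowed to overlap. A CHR lay in the last 100 bases before the start in 10 of 31 promoters (32.3%), against 5.58% of 17491 protein-coding promoters and 1 of 41 promoters of DNA replication genes (2.44%). At least 2 CCAAT boxes lay in the 250 bases in 16 of 31 (51.6%), against 12.0% of all promoters and 9 of 41 (22.0%) of the DNA replication genes. Both features were found in 9 of 31 (29.0%), namely Bub3, Ccnf, Cdc20, Cdk1, Cks1b, Kif22, Mki67, Top2a and Ube2c, against 0.680% of all promoters. Such matches describe letters in these windows and do not show binding.

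The following stretches of 130 bases end at the base before the start and are shown because they lie outside annotated genes and the 250-base promoters they come from hold both features, with CHR and CCAAT matches of either strand in capitals. Cdk1 lies at chr10:69352913-69353042 on the minus strand, Cks1b at chr3:89418292-89418421 on the minus strand, Ube2c at chr2:164769799-164769928 on the plus strand, Ccnf at chr17:24251410-24251539 on the minus strand and Cdc20 at chr4:118437344-118437473 on the minus strand. The promoter of Mad2l1, at chr6:66535091-66535220 on the plus strand, is shown for contrast, since neither motif was found in its 250 bases. The stretch of Ccnf holds 1 of its CCAAT boxes, and the other begins 147 bases before the start.
Cdk1: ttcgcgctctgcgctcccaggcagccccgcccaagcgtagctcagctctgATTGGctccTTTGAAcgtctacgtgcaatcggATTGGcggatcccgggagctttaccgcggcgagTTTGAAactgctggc
Cks1b: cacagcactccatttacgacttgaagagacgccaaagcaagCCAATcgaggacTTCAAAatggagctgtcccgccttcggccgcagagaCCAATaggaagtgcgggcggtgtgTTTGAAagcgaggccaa
Ube2c: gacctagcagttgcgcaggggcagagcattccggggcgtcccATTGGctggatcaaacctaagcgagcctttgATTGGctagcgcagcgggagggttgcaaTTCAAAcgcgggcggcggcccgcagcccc
Ccnf: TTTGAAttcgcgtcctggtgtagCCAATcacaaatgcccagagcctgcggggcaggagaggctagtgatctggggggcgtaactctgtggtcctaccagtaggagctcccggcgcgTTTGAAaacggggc
Cdc20: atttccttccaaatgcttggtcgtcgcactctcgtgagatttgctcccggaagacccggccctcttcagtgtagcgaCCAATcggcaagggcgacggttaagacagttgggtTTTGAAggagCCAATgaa
Mad2l1: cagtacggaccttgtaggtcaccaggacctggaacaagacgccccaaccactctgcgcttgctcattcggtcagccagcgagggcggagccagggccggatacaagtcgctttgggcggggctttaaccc
The CHR nearest to the start began 15 bases before it in Cdk1, 17 in Cks1b, 29 in Ube2c, 14 in Ccnf and 18 in Cdc20. Birc5, Cenpc1, Nusap1, Pttg1 and Tacc3 likewise had neither motif in the 250 bases. For Pttg1 and Cenpc1 the start used lay 1482 and 379 bases from the annotated 5' edge of the gene, and the window overlapped the gene. The same held for Kif2c at 3852 bases and Aurka at 316. A missing motif therefore describes the window searched only.

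Signals are array intensities after each array was scaled to a common median of 103.4, in arbitrary units, given for samples 1 to 5 in that order or as mean ± SD over n = 5 samples. A gene was called above the limit if its signal was over the array median on all 5 arrays, a rank within each array that does not prove that a transcript is present. Of the 38 mitosis and spindle genes, 36 (94.7%) were above the limit, against 44.5% of 8251 named genes. At a stricter limit, the 75th percentile of each array, 24 of 38 were above it, against 21.7% of named genes. The other 2 genes were Ube2c, the ubiquitin-conjugating enzyme of the anaphase-promoting complex, which exceeded the median on 2 arrays, and Cenpe, a kinetochore kinesin, which did so on none. Probe sets differ in how strongly they bind, so signals are compared below between samples and not between genes.

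**Figure D1:**
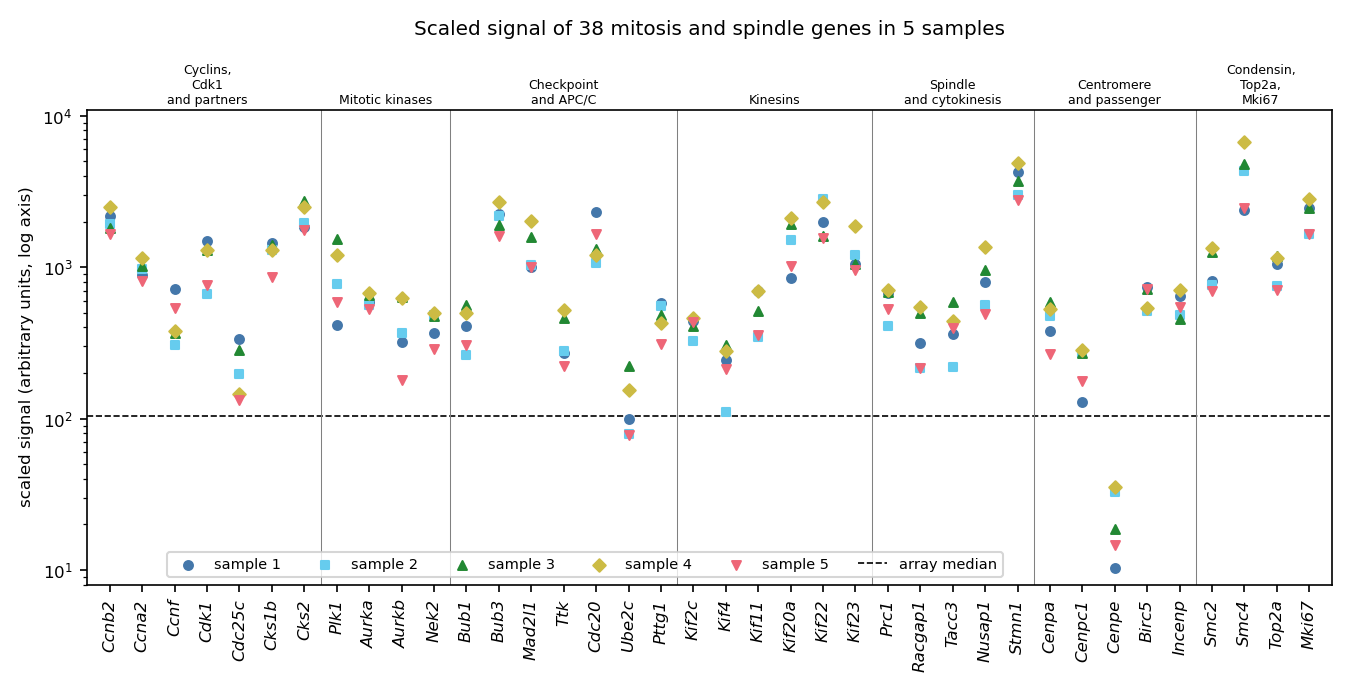
Scaled signal of the 38 measured genes on a log axis, grouped by role, with 1 point per sample (n = 5) and a dashed line at the common array median of 103.4. All points of 36 genes lie above the line, those of Ube2c lie on both sides and those of Cenpe below it.

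Markers of the sort and of other cells were read beside these levels. Flt3 had 571, 1212, 353, 1268 and 318 and Itgam, which encodes CD11b, had 789, 546, 223, 343 and 486, all above the median. Markers of neutrophil granules were above the limit in 11 of 12 genes, with a summed signal from 82440 in sample 1 to 276174 in sample 4. Single genes did not all follow that sum. Of the 11 genes passing the signal filter 8 were highest in sample 4, while Elane, Prtn3 and Ctsg, which encode granule proteases, were highest in sample 1, with 10647, 2027, 2760.0, 6325 and 7356 for Elane. The median over these 11 genes of the log2 signal minus each gene's mean, relative to all genes, was highest in sample 4 at 0.68 and lowest in sample 2 at -0.66. Monocyte and macrophage markers were above the limit in 8 of 10 genes, with a summed signal from 10048 in sample 5 to 22817 in sample 4. The same relative median over these 10 genes was 0.38 in sample 2, 0.37 in sample 4 and -0.72 in sample 5. In sample 2, 9 of the 10 lay above their mean, against 55.7% of all genes, and in sample 4, 7 of 10, against 69.1%. Of 10 genes of mature and plasmacytoid dendritic cells 1 was above the limit, the actin-bundling gene Fscn1, and 3 exceeded the median on no array. Among the class II genes, H2-Ab1 exceeded it on no array and H2-Aa and H2-Eb1 on 1 array each. Itgax, with 44.8, 167, 108, 117 and 44.0, exceeded it on 3 arrays. Of B cell precursor genes 0 of 9, of T and NK cell genes 0 of 8 and of erythroid genes 2 of 8 were above the limit. Fscn1 and the erythroid genes, Car2 and Slc4a1, were named after their values were seen. Which of these cells carried the mitotic transcripts was not tested.

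The cyclins, Cdk1 and their partners were all above the limit, 7 of 7 measured. Ccnb2, a B-type cyclin, had 2184, 1915, 1803, 2493 and 1647, and Ccna2, the A-type cyclin of S phase and mitosis, had 886, 974, 1017, 1156 and 805. Sample 4 was highest and sample 5 lowest for both cyclins, which spanned 1.51-fold and 1.44-fold. Cdk1, the mitotic kinase itself, had 1498, 667, 1298, 1301 and 765, so that samples 1, 3 and 4 formed a high set and samples 2 and 5 a low set, 2.24-fold apart at the extremes. Cdc25c, a phosphatase that activates Cdk1, had 337, 198, 285, 145 and 133 on the probe set with the highest mean, with samples 4 and 5 lowest. Ccnf, an F-box protein that behaves like a cyclin, followed another order with 723, 306, 365, 377 and 537, highest in sample 1 and next in sample 5. The small Cdk-binding proteins Cks1b, with 1446, 1303, 1404, 1304 and 864, and Cks2, with 1843, 1954, 2731, 2499.8 and 1753, shared sample 5 as the lowest. For Cks1b the other 4 samples lay close together.

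Mitotic kinases were above the limit in 4 of 4 genes and included the steadiest and the most variable members. Aurka, the Aurora kinase of centrosomes and spindle poles, had 586, 562, 650.1, 679 and 526, a span of 1.29-fold and the smallest of the 37 genes whose mean log2 signal lay above the common median. Aurkb, the Aurora kinase of the chromosomal passenger complex, had 322, 370.1, 636, 627 and 181, with samples 3 and 4 alike and 3.51-fold between samples 3 and 5. Plk1, a kinase of mitotic entry and cytokinesis, had 414, 780.1, 1547, 1199 and 588 on the probe set with the highest mean, the widest span of these genes at 3.74-fold. Nek2, a centrosome kinase, had 366, 486, 479, 500.1 and 289, with sample 5 lowest and sample 1 next. Relative to all genes the median deviation of the 4 kinases was 0.47 on the log2 scale in sample 3 and -0.40 in sample 5. In sample 3 the probe set used for Plk1 lay 0.93 above its mean, but its other probe sets deviated by -0.06 and 0.12. The size of the kinase median in sample 3 therefore depends on the probe set taken for Plk1.

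Checkpoint genes and regulators of the anaphase-promoting complex were above the limit in 6 of 7 genes. Bub1, a checkpoint kinase of kinetochores, had 412, 261, 564, 498 and 308, Ttk, the kinase that recruits checkpoint proteins, 273, 279, 464, 519.7 and 223, and Mad2l1, the inhibitor of Cdc20, 1004, 1027, 1578, 2009 and 996. In each of them samples 3 and 4 exceeded all other samples. Bub3, the partner of Bub1, spanned 1.68-fold, with 2233, 2175, 1906, 2714 and 1611. Cdc20, the activator of the anaphase-promoting complex that Mad2l1 holds back, ran differently with 2315, 1068, 1323, 1202 and 1652, highest in samples 1 and 5. Pttg1, which encodes securin, had 578, 557, 480.2, 426 and 309 and was highest in sample 1, while Ube2c had 99.8, 79.2, 221, 155 and 77.6 and exceeded the median in samples 3 and 4 only.

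Kinesins were above the limit in 6 of 6 genes. Kif11, the motor that pushes spindle poles apart, had 697, 344, 512, 696 and 356, with samples 1 and 4 about equally high and samples 2 and 5 about equally low. Kif20a, a motor of the central spindle, had 847, 1514, 1914, 2105 and 1016, highest in samples 3 and 4. Kif4, a chromosome-bound motor, had 244, 111, 305, 278 and 212, and its sample 2 lay 2.74-fold under sample 3. The span was smaller for Kif2c, a microtubule depolymerase, at 414 ± 53.2 and 1.42-fold, and for Kif23, a motor of cytokinesis, at 1225 ± 365 and 1.93-fold, highest in sample 4. Kif22, a chromosome-arm motor, had 1981, 2819, 1598, 2691 and 1556 and was the only gene among the 37 with its highest value in sample 2, where 21.4% of all genes had theirs.

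Genes of the spindle and of cytokinesis were above the limit in 5 of 5. Racgap1, a subunit of the central spindle complex, had 315, 215, 500.0, 543 and 215, with samples 3 and 4 over 2 and 5 by a wide margin and sample 1 between. Nusap1, a spindle-binding protein, had 793, 566, 962, 1359 and 492 and Tacc3, which stabilises spindle fibres, 359.8, 219.6, 587, 441 and 395. Prc1, the bundler of midzone microtubules, had 603 ± 129 and Stmn1, which destabilises microtubules, 3723 ± 853. In all 5 genes sample 2 lay under the mean over samples and samples 3 and 4 above it, and the median deviation relative to all genes in sample 2 was -0.59 on the log2 scale.

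Centromere and passenger genes were above the limit in 4 of 5. Cenpa, the histone variant of centromeres, had 376, 476, 593, 528 and 268 and Cenpc1, which binds it, 128, 271, 272, 285 and 177. Samples 3 and 4 exceeded samples 2 and 5 in both, though for Cenpc1 by little over sample 2. Birc5, which encodes survivin of the passenger complex, had 741, 513, 723, 539 and 715, with samples 1, 3 and 5 high and samples 2 and 4 low. Incenp, the scaffold of the same complex, had 649, 485, 456, 707 and 547, highest in sample 4 and lowest in sample 3. These values for Aurkb, Birc5 and Incenp, whose proteins share a complex, followed 3 different orders of samples. For Incenp the order differed between its probe sets, and the other one, given below, was highest in sample 1. Cenpe, listed here with 10.3, 32.9, 18.7, 35.5 and 14.6, was below the median throughout, and its order is not interpreted because most of these values lie under or near the floor of 30.0.

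Condensin subunits and chromosome proteins were above the limit in 4 of 4. Smc2 had 812, 757, 1254, 1339.7 and 697 and Smc4, its partner in condensin, 2390.1, 4290.2, 4788, 6743 and 2476. Top2a, the topoisomerase that untangles sister chromatids, had 1042, 752, 1186, 1154 and 711 and Mki67, the proliferation marker that coats mitotic chromosomes, 2456, 1647, 2441, 2804 and 1649.7. Samples 3 and 4 exceeded samples 2 and 5 in all 4 genes. Sample 1 differed within the group, since it was near samples 3 and 4 for Top2a and Mki67, near sample 5 for Smc4 and near samples 2 and 5 for Smc2.

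Across the members, spread between samples was close to that of other genes. The SD of log2 signal had a median of 0.44 over the 37 genes with a mean log2 signal above the common median, and ran from 0.15 to 0.77. The same median was 0.46 over 4557 named genes passing that filter, 0.49 over 39 DNA replication genes and 0.51 over 41 further mitosis genes. An outlying sample by Dixon's ratio was found in 1 of 37 members (2.70%), against 5.97% of the 4557 genes.

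Most members were high in samples 3 and 4 and low in samples 2 and 5, and in sample 1 they divided into 19 above and 18 below their mean. A deviation is the log2 signal of a sample minus the gene's mean over 5 samples, and its median over all 4557 genes was -0.05, 0.06, 0.00, 0.20 and -0.09 in samples 1 to 5, so list medians are given relative to it. The 37 members had medians of 0.07, -0.32, 0.31, 0.15 and -0.30 in samples 1 to 5. The value of sample 4 was 0.06 with quantile normalization, 0.10 without sample 2 and 0.26 without the signal filter, that of sample 3 was 0.19 without sample 2, and that of sample 1 ran from -0.03 to 0.15 over the alternatives. Before that subtraction the members had 0.02, -0.26, 0.30, 0.34 and -0.39, and those of samples 3 and 4 were -0.13 and -0.29 in the values as deposited, where sample 1 is on a higher scale. In sample 3, 29 of 37 lay above their mean, against 49.4% of all genes, and in sample 4, 32 of 37, against 69.1%. In sample 5, 32 of 37 lay below their mean, against 57.9%, and in sample 2, 26 of 37, against 44.3%. Sample 4 was the highest sample in 19 of 37 genes (29.2% of all genes) and the lowest in 0 (8.51%), and sample 5 was the lowest in 20 (24.0% of all genes) and the highest in 0 (13.9%). Deviations of a gene sum to 0 over samples, so these counts are not separate findings.

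**Figure D2:**
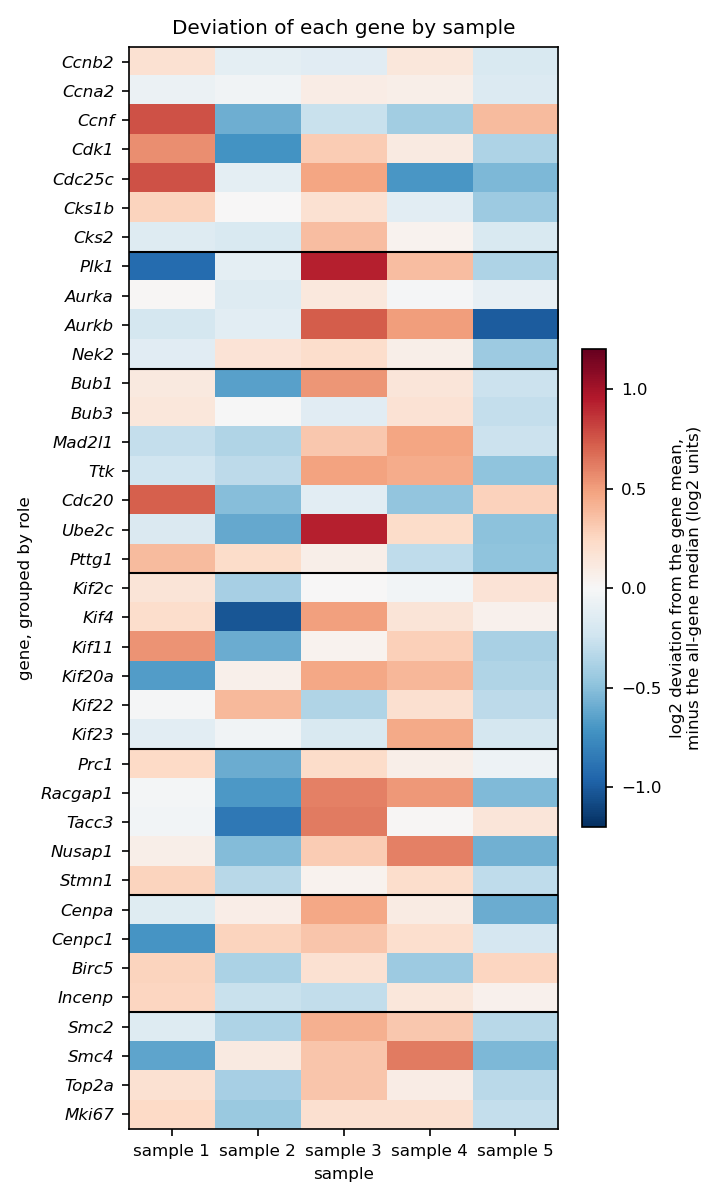
Log2 deviation of each of 37 genes from its mean over 5 samples, minus the median deviation of all 4557 genes in that sample; rows are genes grouped by role and columns are samples. Red in samples 3 and 4 and blue in samples 2 and 5 prevail, while Ccnf, Cdc20 and Birc5 are red in samples 1 and 5.

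Samples 3 and 4 both exceeded samples 2 and 5 in 25 of 37 members (67.6%), against 21.4% of all genes, a count chosen after the values were seen. The other 12 were Birc5, Bub3, Ccnb2, Ccnf, Cdc20, Cdc25c, Incenp, Kif22, Kif23, Kif2c, Nek2 and Pttg1. Among the 25, Ube2c exceeded the array median in samples 3 and 4 only. Those samples carried its mean past the signal filter, so its place in the count adds no support. With quantile normalization the count was 23 of 37, against 18.6% of all genes, and with scaling to a trimmed mean 22 of 37, against 16.7%. Promoters with a CHR in the last 100 bases numbered 6 of 20 among members with the shared order and 4 of 10 among the others, and those with at least 2 CCAAT boxes 11 of 20 and 5 of 10. Of the promoters printed above, those of Cdk1, Cks1b and Ube2c belong to genes with the shared order and those of Ccnf and Cdc20 to genes without it, while Mad2l1, with neither motif, has it.

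Measures of RNA quality and of other cells also differed between samples. The signal ratio between 3' and 5' control probe sets, which rises when RNA or its labelled copy is shorter, was 1.08, 3.003, 4.15, 5.20 and 2.55 for actin in samples 1 to 5. For Gapdh it was 0.896, 1.06, 4.52, 3.42 and 2.01, and for the transferrin receptor 3.14, 3.77, 16.7, 8.63 and 5.16. Samples 3 and 4, where most mitosis and spindle genes were high, thus had the highest ratios of all 3 controls. For the transferrin receptor the 5' signal was 13.3 in sample 3 and 13.8 in sample 4, under the floor of 30.0. The size of its ratios in these samples is therefore uncertain. Flt3 and Itgam both lay under their mean in sample 3, and the summed neutrophil and monocyte markers were highest in sample 4, although 3 neutrophil genes were highest in sample 1. Relative to all genes, the median deviation of the monocyte and macrophage markers was about equal in sample 2 (0.38) and sample 4 (0.37). The part of RNA quality and of cell make-up in the order of samples was not tested. Without sample 3, sample 4 exceeded samples 2 and 5 in 30 of 36 members, against 42.0% of all genes, and without sample 4, sample 3 did so in 27 of 37, against 30.0%. Without sample 2, samples 3 and 4 exceeded sample 5 in 32 of 37, against 47.8%, and without sample 5 they exceeded sample 2 in 29 of 37, against 35.9%. Each of these asks for fewer comparisons than the order of all 4 samples.

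DNA replication genes, which act in S phase just before, were set beside the mitosis genes. They were above the limit in 33 of 44 genes (75%), and a further list of 48 measured mitosis genes in 36 (75%). The replication genes had relative medians of 0.06, -0.34, 0.15, 0.01 and 0.18 in samples 1 to 5. Sample 2 was thus low for both lists, while in sample 5 the mitosis and spindle genes had -0.30 and the replication genes 0.18. The further mitosis genes had 0.05 in sample 5, so the low median there was not shared by mitosis genes in general. Of the 5 helicase subunit genes that passed the signal filter, Mcm2, Mcm3 and Mcm4 lay below their mean in sample 5, and Mcm5 and Mcm7 above it, of which Mcm7 was named after its value was seen. Mcm4 had 743, 455, 866, 889 and 355 and Mcm5 had 2142, 964, 1130.4, 1827 and 2357. Samples 3 and 4 exceeded samples 2 and 5 in 17 of 39 replication genes (43.6%) and in 15 of 41 further mitosis genes (36.6%). With 1 group of samples the difference between lists was not tested.

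**Figure D3:**
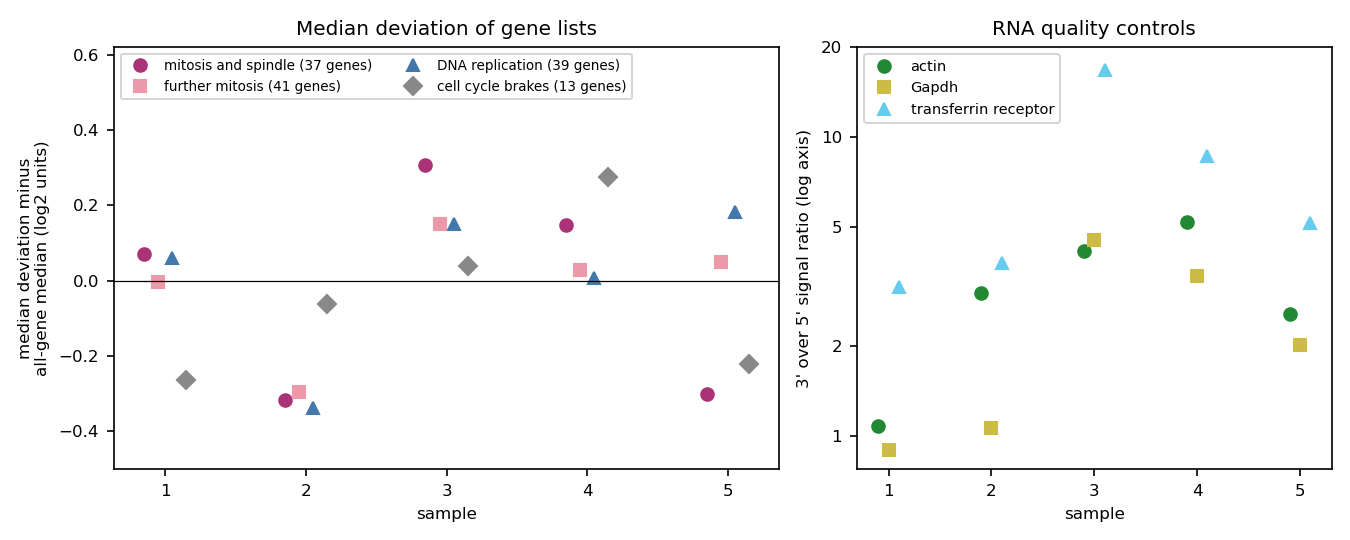
Left, the median log2 deviation of 4 gene lists relative to all genes in samples 1 to 5; right, the 3' over 5' signal ratio of 3 control transcripts on a log axis. The mitosis and spindle genes are high in sample 3 at 0.31 and low in sample 5 at -0.30. In sample 5 the DNA replication genes are at 0.18 and the further mitosis genes at 0.05. Samples 3 and 4 have the highest control ratios.

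The further mitosis genes included regulators that act beside the members. Wee1, the kinase that holds Cdk1 inactive, had 123, 216, 337, 232 and 236, highest in sample 3. Plk4, the kinase of centriole duplication, had 791, 1092, 2092, 2129.6 and 910.4, with samples 3 and 4 well over the rest. Plk3, a stress-responsive relative, had 1761, 1568, 1627, 1859 and 2429.8 and was highest in sample 5, while Plk2 exceeded the median on 1 array with 76.7 ± 33.5. The list as a whole had relative medians of 0.00, -0.30, 0.15, 0.03 and 0.05 in samples 1 to 5.

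Several probe sets of 1 gene did not always give 1 answer. Of the 11 members with several, 8 had probe sets on different sides of the limit, and Plk1 and Kif20a had all of theirs above it. The same share over all genes with several probe sets was not computed, so this count says nothing particular about the members. For Plk1 the probe set used above had 414, 780.1, 1547, 1199 and 588, whereas the others had 1260.0, 426, 688, 847 and 609 and 527, 191, 301, 135 and 401, both highest in sample 1, where the former was lowest. The order of samples for Plk1 therefore depends on the probe set. For Kif20a both probe sets were highest in sample 4, but the lower one, with 329.8, 142, 382, 398 and 294, had its minimum in sample 2 and not in sample 1. For Bub1 the lower probe sets had 60.1, 71.0, 94.3, 187 and 102 and 16.4, 11.1, 8.47, 13.5 and 12.0, the latter below the median throughout. The lower probe set of Nusap1 had 99.9, 117, 131, 37.5 and 51.8, lowest in sample 4, where the one used above was highest. That of Incenp had 207, 146, 23.9, 82.7 and 51.2, highest in sample 1 and not in sample 4. That of Cdc25c had 199, 76.7, 56.9, 42.6 and 126, so that sample 5 was second highest and not lowest. With only the probe sets whose names carry no letter suffix, 31 of 34 members were above the limit, against 43.3% of named genes, and samples 3 and 4 exceeded samples 2 and 5 in 22 of 31, against 21.6%.

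**Figure D4:**
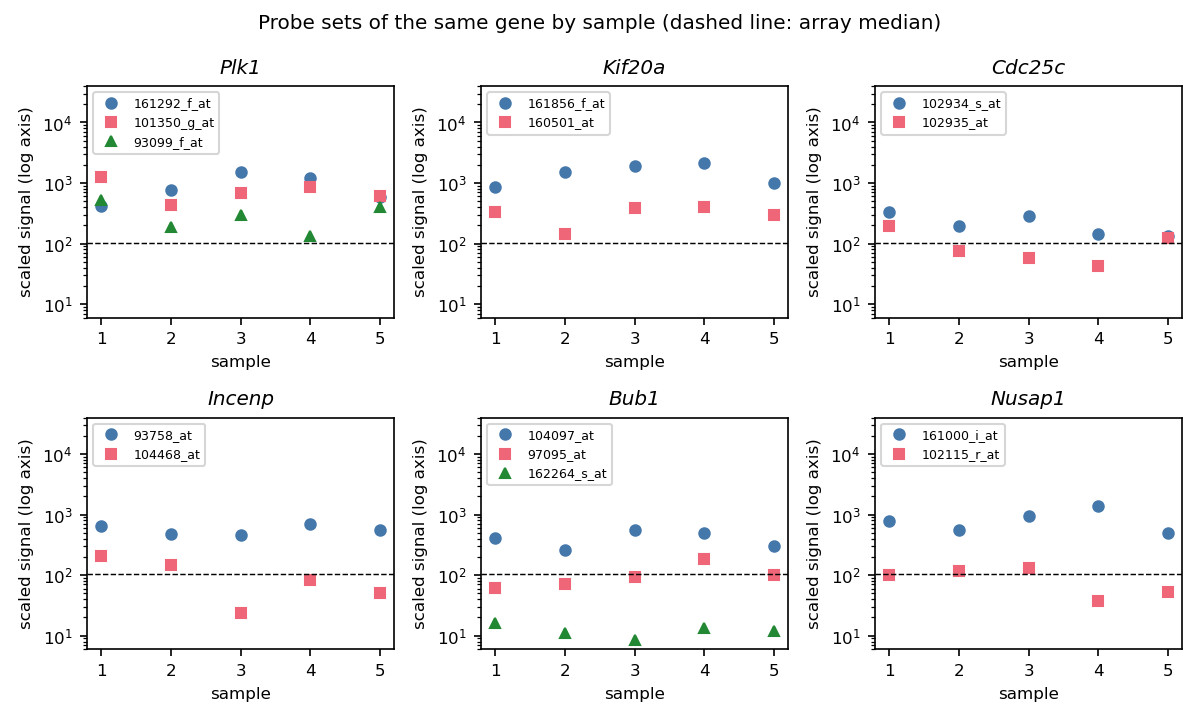
Scaled signal by sample, on a log axis, of every probe set of 6 genes with several, with 1 marker per array and a dashed line at the common array median of 103.4. The probe set of Plk1 used in the text is highest in sample 3 and the other 2 in sample 1, and the lower probe sets of Incenp, Bub1 and Nusap1 fall below the line in some or all samples.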

How the data were processed

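The deposited values were linear array intensity values, and how the authors made them is not stated in the labels or the file. Their medians were 392 in sample 1 and 66.5 to 81.2 in the others, so every array was rescaled by a constant to the common median of 103.4 after removal of 66 control probe sets. Before log2 was taken, lower values were set to 30.0, which is the 25th percentile of the scaled data; signals are quoted without this floor. Of 12422 probe sets, 10833 had 1 gene symbol in the platform annotation, 396 had several and 1193 were not listed. Where a gene had several probe sets, the one highest in mean log2 signal was used, which gave 8251 genes. Shifts and spread used genes with a mean above the common median. Work was done in Python 3.11.15 with pandas 2.3.3 and numpy 2.4.6, and the procedures were tested on simulated data. The number of arrays limits the precision, and no detection calls were used. Members and lists were chosen with earlier results of these data known. The naming rule allowed every measured member, Flt3, Itgam and the leading 4 measured genes of each other list.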

Additional observations from a re-analysis of the deposited data

Results flagged for a closer look

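Cks1b was the 1 member with a sample far from the others. Its signals were 1446, 1303, 1404, 1304 and 864 in samples 1 to 5, and the gap of sample 5 to its nearest neighbour was 0.797 of the whole range on the log2 scale, over Dixon's 95% critical value of 0.71 for 5 samples. Chance gives such a gap in about 1 of 20 genes, and 5.97% of all genes passing the signal filter had one.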

How the results depend on the processing

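The count of members above the limit ran from 24 of 38 with the limit at the 75th percentile to 39 of 51 with every probe set on its own. It was 36 under every scaling and without any 1 sample, but this gives no support. The limit is a rank within each array, which rescaling and quantile normalization keep, and leaving out an array cannot lower the count. The relative medians of members kept their sign in samples 2 to 5 under all 11 alternatives, from -0.36 to -0.23 in sample 2, 0.19 to 0.31 in sample 3, 0.06 to 0.26 in sample 4 and -0.39 to -0.24 in sample 5. In sample 1 they ran from -0.03 to 0.15. Among these alternatives, the values as deposited and trimmed mean scaling differ from the main scaling by a constant per array. Subtracting the median of all genes removes such a constant, so these alternatives could hardly differ and add no support. A floor at the 10th percentile adds none either. All signals of the 37 members lay over the main floor of 30.0, so a lower floor left their own deviations unchanged. In the values as deposited, where sample 1 is on a higher scale, the medians before subtraction were 1.94, -0.76, -0.13, -0.29 and -0.74 in samples 1 to 5, so those of samples 3 and 4 turned negative, and the median SD was 1.16. Outlying samples were then found in 22 of 38 members, against 3 of 38 with quantile normalization and 2 of 38 with trimmed mean scaling. They were found in 3 of 51 with every probe set on its own. With probe sets without a letter suffix, a setting chosen after seeing the data, they were found in 2 of 34. The share over all genes was not computed under these settings, so these counts say nothing particular about the members. Where all 4 samples were compared, samples 3 and 4 exceeded samples 2 and 5 in 22 of 37 members with trimmed mean scaling and 25 of 37 with the lower floor. With every probe set on its own the count was 27 of 40 probe sets, and without letter suffixes 22 of 31 members. The shares over all genes or probe sets ran from 16.7% to 21.6%. Leaving out 1 of the 4 samples sets an easier pattern, which 27 to 32 members met, against 30.0% to 47.8% of all genes. No paired analysis was possible because the samples form 1 group.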

Other observations

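Cell cycle brakes, genes that slow or stop division, were above the limit in 10 of 16. Cdkn1a, which encodes the Cdk inhibitor p21, had 251, 387, 201, 416 and 300.4 in samples 1 to 5, and Cdkn1b, which encodes the related p27, 92.8, 118, 104, 189 and 134. Cdkn1c exceeded the median on 3 arrays at 97.7 ± 25.7 and Cdkn2a on 0 at 55.6 ± 28.8 (SD, n = 5). The 13 brake genes that passed the signal filter had medians relative to all genes of -0.26, -0.06, 0.04, 0.27 and -0.22 in samples 1 to 5. In sample 4 all 13 lay above their mean over samples, against 69.1% of all genes, and sample 4 was also high for most mitosis and spindle genes.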
